A study of Homo sapiens with 4 samples.

Results

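The genes described here are the collagens and the enzymes that modify and crosslink them, 53 of the 25317 gene symbols in the deposited tables. They were chosen by name: 42 collagen genes, whose symbols consist of COL, a number, A and a number, and 11 genes of collagen modification. The latter are the lysyl oxidases LOX and LOXL1 to LOXL4, the lysyl hydroxylases PLOD1 to PLOD3, the prolyl hydroxylase subunits P4HA2 and P4HA3 and the chaperone SERPINH1. COL7A1 and COL17A1, collagens of the epithelial anchoring complex, were left out by the rule. RNA was sequenced from 4 libraries of MCF10A, an established non-tumour human mammary epithelial cell line, with 1 library for each delivered construct. All 4 cultures were infected with a lentivirus (pHIV-ZsGreen). The control carried an empty vector (EV), and the others overexpressed Zeb1, Snail or Ovol2. All cultures grew in medium with insulin, cholera toxin, epidermal growth factor and horse serum, and fluorescent cells were sorted 6 days after infection. Zeb1 and Snail are repressors known to push epithelial cells towards a mesenchymal state, and Ovol2 is known to act in the opposite sense. The labels do not say which promoter drove the constructs.

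Collagens are built from chains that wind into a triple helix. Within the endoplasmic reticulum, prolyl and lysyl hydroxylases modify the chains and SERPINH1 (HSP47) helps them to fold. Outside the cell, lysyl oxidases crosslink the assembled molecules. Fibrillar collagens (types I, III and V among them) form the fibres of connective tissue, whereas type IV collagen forms the sheet of the basement membrane on which mammary epithelium rests.

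With 1 library per group there is no spread between replicates, so no p-value is given and each difference describes these libraries alone. Levels are in FPKM, fragment counts scaled for transcript length and library depth. Differences are log2 ratios of FPKM + 1, which understate the change of low genes. A gene was kept in a comparison at 1 FPKM or more in either library, and called higher or lower at 2-fold or more. Depth, inferred from the value that 1 fragment adds, ran from about 24200000 to 34400000 fragments per library. The delivered factors matched the labels, with ZEB1 at 17.3 FPKM in the Zeb1 library against 0.260 in the EV library, SNAI1 at 99.7 in the Snail library against 0.152, and OVOL2 at 78.3 in the Ovol2 library against 6.32. The 9 mammary epithelial markers, such as KRT5 and CDH1, summed to 9261 FPKM with EV, 2522 with Zeb1, 7529 with Snail and 5073 with Ovol2. KRT17 alone was at 4624 FPKM with Ovol2. All 9 were below EV in the Ovol2 library, with log2 ratios from -3.76 for KRT5 to -0.13 for KRT18, and -0.95 for CDH1. Non-coding RMRP and RPPH1 took 18.7% to 24.6% of all FPKM in 3 libraries, and 40.6% with Ovol2.

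The 6 type IV genes lie in 3 head-to-head pairs, and bases between the starts are shown (all of them for the first pair, 250 for the other pairs) because the partners are compared below. In the RefSeq promoter table (build GRCh38.p14, whereas the study's processing notes name hg19), the starts of COL4A1 and COL4A2 are 127 bases apart on chromosome 13. Those of COL4A4 and COL4A3 are 419 bases apart on chromosome 2, and those of COL4A6 and COL4A5 are 380 bases apart on chromosome X for the nearer of 2 listed COL4A6 starts and 1416 for the other. The promoter of COL16A1 is added because this gene differed in the opposite direction from most members in the Zeb1 library. Capitals mark CAGGTG or its reverse complement CACCTG, the E-box bound by ZEB and Snail factors. All are written 5′ to 3′ on the strand of the named gene, up to the base before its start.
COL4A1 to COL4A2, chr13:110307158-110307283, minus strand: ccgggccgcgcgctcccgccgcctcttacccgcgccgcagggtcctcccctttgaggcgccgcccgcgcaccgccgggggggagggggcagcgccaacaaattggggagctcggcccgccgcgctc
COL4A3, chr2:227164374-227164623, plus strand: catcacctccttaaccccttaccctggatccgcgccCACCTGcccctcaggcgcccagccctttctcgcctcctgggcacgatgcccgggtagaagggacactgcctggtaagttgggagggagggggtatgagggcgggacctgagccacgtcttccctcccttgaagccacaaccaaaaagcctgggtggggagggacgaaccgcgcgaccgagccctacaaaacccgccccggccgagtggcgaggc
COL4A5, chrX:108439588-108439837, plus strand: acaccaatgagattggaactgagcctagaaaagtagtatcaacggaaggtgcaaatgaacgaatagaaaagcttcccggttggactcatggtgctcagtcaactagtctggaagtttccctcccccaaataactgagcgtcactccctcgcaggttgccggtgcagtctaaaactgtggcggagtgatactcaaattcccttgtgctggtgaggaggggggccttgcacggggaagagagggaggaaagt
COL16A1, chr1:31704018-31704267, minus strand: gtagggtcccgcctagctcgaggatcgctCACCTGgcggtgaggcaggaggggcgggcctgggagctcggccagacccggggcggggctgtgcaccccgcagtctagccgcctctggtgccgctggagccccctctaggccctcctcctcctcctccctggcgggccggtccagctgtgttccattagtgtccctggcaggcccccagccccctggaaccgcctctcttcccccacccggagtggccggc

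The COL4A3 and COL4A4 windows hold the same CACCTG site, 214 bases before the COL4A3 start and 210 before the COL4A4 start. The COL4A1 and COL4A2 windows and the COL4A5 window hold no match to these letters. Of the 53 members, 39 matched the table by symbol, with 55 windows of 300 bases in all. The unmatched were COL1A1, COL1A2, COL2A1, COL3A1, COL5A2, COL6A1, COL6A5, COL8A1, COL9A3, COL14A1, COL20A1, COL22A1, LOXL2 and P4HA3. CAGGTG, searched on both strands, was in 10 of the 55 windows (18.2%) and in 20.6% of all 35116 windows of the same length. The genes with it were COL4A3, COL4A4, COL8A2, COL9A2, COL16A1, LOX, LOXL3, LOXL4 and SERPINH1. CCGTTA, the core recognised by Ovol factors, was in 3 of the 55 (5.45%) against 3.07% of all windows. The looser CANNTG, which includes CAGGTG, was in 32 (58.2%) against 68.7%. These are matches of letters, and binding was not measured.

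Collagen transcripts differed widely in amount between the libraries. The 42 collagen genes summed to 199 FPKM with EV, 549 with Zeb1, 299 with Snail and 18.8 with Ovol2. The 11 modification genes summed to 245, 538, 414 and 62.6 FPKM in the same order. Both sums were therefore highest in the Zeb1 library and lowest in the Ovol2 library. The order held per 10000 FPKM without RMRP and RPPH1, where collagens took 7.04 with EV, 24.2 with Zeb1, 10.3 with Snail and 0.570 with Ovol2. Type IV collagen, the basement membrane network, was the largest class in every library, with 68.4% of the collagen sum with EV, 47.3% with Zeb1, 72.4% with Snail and 58.6% with Ovol2. Fibrillar collagens held 4.76% with EV, 18.1% with Zeb1, 4.03% with Snail and 15.4% with Ovol2, and the short-chain network collagens, nearly all COL8A1 in the Zeb1 library, held 3.54%, 17.2%, 3.36% and 1.97%. The fibrillar share with Ovol2 was of a small total, as these genes summed to 2.89 FPKM, against 9.46 with EV and 99.4 with Zeb1. Every fibrillar gene stayed under 1 FPKM with Ovol2, with COL27A1 highest at 0.893. In bulk RNA, fewer cells that make a transcript and less transcript per cell cannot be told apart.

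**Figure D1:**
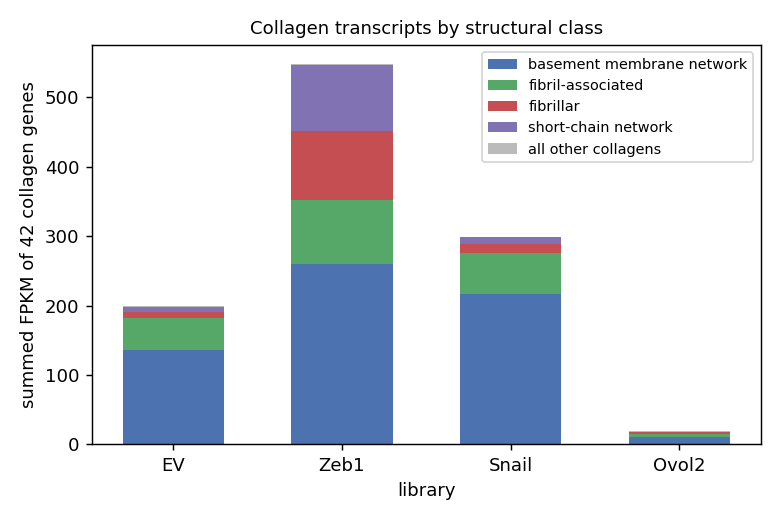
Summed FPKM of the 42 collagen genes (vertical axis) in each of the 4 libraries (horizontal axis), stacked by structural class. The Zeb1 bar reaches 549 FPKM with added fibrillar and short-chain segments, and the Ovol2 bar reaches 18.8 FPKM.

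Of the 53 members, 23 reached 1 FPKM in any library, 15 of them collagens and 8 of them modification genes. All 23 reached it in the Zeb1 library, whereas 18 did so with EV, 20 with Snail and 13 with Ovol2. Of all 25317 symbols, 11310 did so with Zeb1, 11359 with EV, 11258 with Snail and 10118 with Ovol2. The Ovol2 library held the lowest level of 20 of the 23. Low levels were common there, with 8497 of all 11812 kept genes below EV. For COL3A1 the Ovol2 and EV levels were close, at 0.0643 and 0.0699 FPKM on about 9 and 11 fragments. The Zeb1 library held the highest level of 16, the Snail library of 4 and the EV library of 3. The other 30 members stayed under 1 FPKM in all libraries, and 18 of them under 0.1. COL28A1 came closest, at 0.794 FPKM with Zeb1 against 0.0558 with EV, 0.169 with Snail and 0.0499 with Ovol2. The remaining 29 were COL2A1, COL5A1, COL11A1, COL11A2 and COL24A1 of the fibrillar type, COL8A2 and COL10A1, the type VI genes COL6A1, COL6A2, COL6A3, COL6A5 and COL6A6, the fibril-associated COL9A1, COL9A2, COL9A3, COL14A1, COL19A1, COL20A1, COL21A1 and COL22A1, the transmembrane COL13A1, COL23A1 and COL25A1, COL15A1, COL18A1, COL26A1, and LOXL3, LOXL4 and P4HA3.

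**Figure D2:**
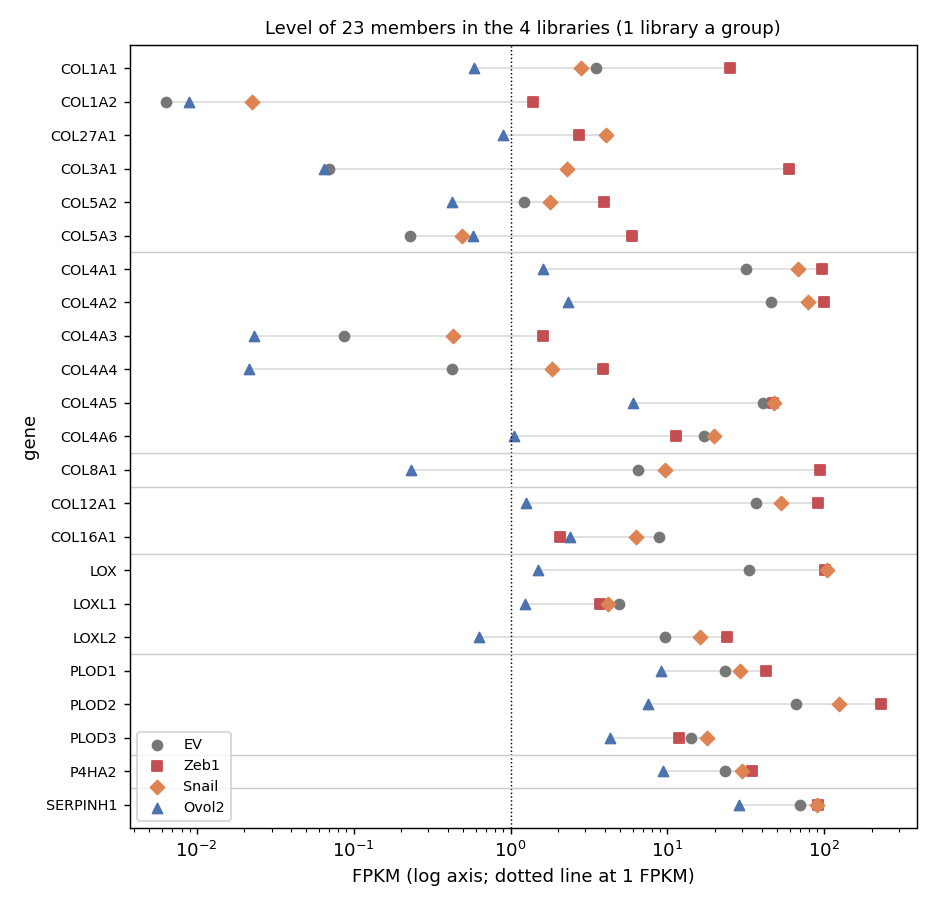
Level in FPKM (horizontal log axis) of the 23 members that reached 1 FPKM in any library, 1 row per gene, with 1 symbol for each library and grey lines between structural groups. Ovol2 triangles lie leftmost in 20 of the 23 rows, and Zeb1 squares rightmost in 16.

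Zeb1 against the empty vector asked how a driver of the mesenchymal state alters these genes. In the Zeb1 library 14 of 23 kept members passed 2-fold upwards and 1, COL16A1, downwards, with a median log2 ratio of 1.23. Over all 11922 kept genes, 4.52% were higher and 8.49% lower, with a median of -0.09. Of these 14, COL1A2, COL3A1, COL4A3, COL4A4 and COL5A3 were kept through the Zeb1 library alone, so they could be called only higher. Among the 18 members at 1 FPKM or more in the EV library, 9 were higher and 1 lower, against 3.30% and 8.91% of the 11359 genes at that level. Of all genes past 2-fold, 34.8% were higher, and this share was 48.1% after centring on the median of genes at 5 FPKM or more in both libraries, 62.4% with equal totals without RMRP and RPPH1, 45.2% with upper quartile scaling and 48.8% after the correction for transcript length described below.

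Snail against the empty vector asked the same of a second such driver. In the Snail library 3 of 20 kept members passed 2-fold upwards and 0 downwards. The 3 were COL3A1, LOX and COL4A1, and the median over the 20 was 0.34. Among all 11644 kept genes, 1.00% were higher and 1.5% lower, with a median of 0.12. COL3A1 and COL4A4 were kept through the Snail library alone, so they could be called only higher. Among the 18 members at 1 FPKM or more in the EV library, 2 were higher and 0 lower, against 0.748% and 1.54% of the 11359 genes at that level. The share of higher genes among all those past 2-fold was 40.1%, and 23.7% after centring and 26.2% with upper quartile scaling. It was 35.7% with equal totals without RMRP and RPPH1 and 31.6% after the length correction.

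Ovol2 against the empty vector asked what a factor known to act in the opposite sense does to them. In the Ovol2 library 17 of 18 kept members passed 2-fold downwards and 0 upwards, with a median of -2.06. Here the background was high as well, with 25.1% of all 11812 kept genes lower, 6.82% higher and a median of -0.51. All 18 reached 1 FPKM in the EV library, and 5 of them (COL1A1, COL5A2, COL8A1, COL27A1 and LOXL2) did so only there. These 5 could thus be called only lower. Of the 11359 genes at 1 FPKM or more in the EV library, 26.1% were lower and 4.54% higher. The Ovol2 ratios followed transcript length across genes, which are not independent, with Spearman's rho of -0.491 and medians of 0.29 in the shortest 10% and -1.07 in the longest 10%. The kept members had long transcripts, with a median of 5720.5 bases against 3209 for all genes. After subtraction of the median ratio of genes of like length, 11 of 18 members were lower, against 7.50% of all genes. COL1A1, COL16A1, COL27A1, P4HA2, PLOD1 and SERPINH1 were the 6 no longer past 2-fold. Among all genes past 2-fold, 21.4% were higher, and 32.8% after centring, 42.2% with upper quartile scaling and 55.4% after the length correction. Equal totals without RMRP and RPPH1 moved this share the other way, to 13.1%. The part of the length trend in the lower collagen levels was not tested beyond that correction.

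The trend with length ran the other way in the Zeb1 and Snail libraries (rho 0.318 and 0.299). After the same correction 12 of 23 members were higher with Zeb1, against 5.57% of all genes, and 2 of 20 with Snail, against 0.752%. The 3 comparisons share the EV library, so values that differ from it together are not independent.

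**Figure D3:**
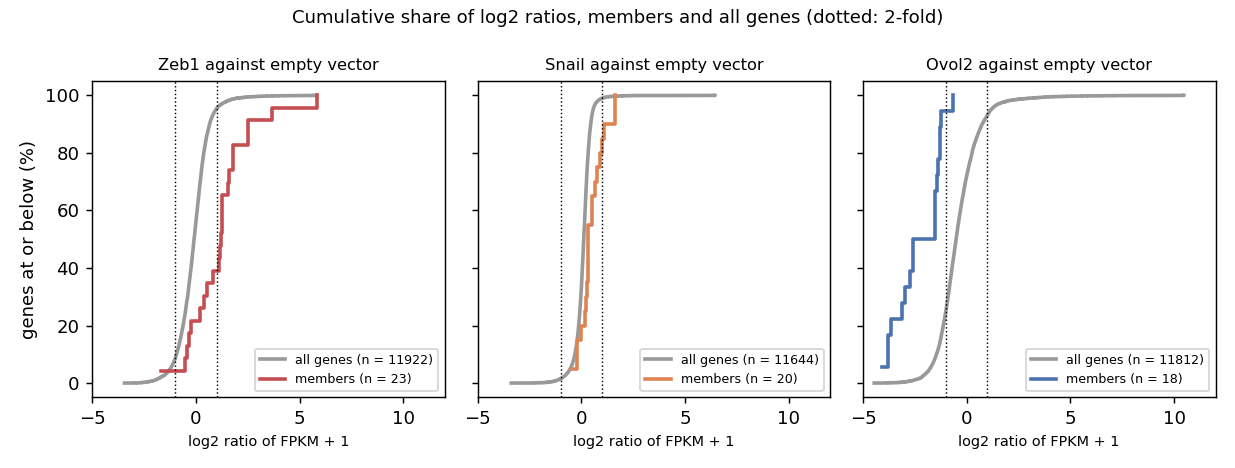
Cumulative percentage of genes (vertical axis) at or below each log2 ratio of FPKM + 1 (horizontal axis) for all kept genes in grey and kept members in colour, with 1 panel per factor. Members lie to the right of all genes with Zeb1 (medians 1.23 and -0.09) and to the left with Ovol2 (-2.06 and -0.51).

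Among the fibrillar collagens, COL3A1 had the widest range. This homotrimeric type III collagen of soft tissue was at 0.0699 FPKM with EV, 59.5 with Zeb1, 2.28 with Snail and 0.0643 with Ovol2. It was thus near the floor in the EV and Ovol2 libraries, which rested on about 11 and 9 fragments. The log2 ratio was 5.82 with Zeb1 and 1.62 with Snail. The plain ratio of Zeb1 to EV was 851, with a 95% counting interval of 487 to 1748, and that of Snail to EV was 32.6 (18.5 to 67.4). Such intervals come from estimated fragments by an exact binomial method and cover counting error only.

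Type I collagen, the main fibre of skin and bone, normally joins COL1A1 chains with COL1A2 chains. COL1A1 was at 3.49 FPKM with EV, 25.0 with Zeb1, 2.83 with Snail and 0.583 with Ovol2, with log2 ratios of 2.54 for Zeb1 and -0.23 for Snail. With Ovol2 its plain level was 5.98-fold below EV (4.82 to 7.49). COL1A2 stood at 0.00635 FPKM with EV, 1.40 with Zeb1, 0.0224 with Snail and 0.00892 with Ovol2. The partner chain was therefore nearly undetected outside the Zeb1 library, with about 1, 4 and 1 fragments in the EV, Snail and Ovol2 libraries. COL1A1 exceeded it 549-fold with EV, 17.9-fold with Zeb1, 126-fold with Snail and 65.4-fold with Ovol2. For COL1A2 the plain ratio of Zeb1 to EV was 221, with a counting interval of 39.2 to 8734 because the EV value rests on about 1 fragment.

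Type V collagen starts and limits the width of fibrils that contain type I. COL5A2 was at 1.21 FPKM with EV, 3.96 with Zeb1, 1.78 with Snail and 0.424 with Ovol2. It was higher with Zeb1 (1.17). It was the single kept member not past 2-fold with Ovol2 (-0.64), where its plain level was 2.86-fold lower and a pseudocount of 0.1 gave -1.32. COL5A3, a chain of some type V molecules, was at 0.229, 5.93, 0.493 and 0.580 FPKM in the EV, Zeb1, Snail and Ovol2 libraries, with a log2 ratio of 2.50 for Zeb1. COL5A1, the chain found in most type V molecules, stayed at or below 0.284 FPKM throughout, so that COL5A2 exceeded its partner in every library.

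COL27A1, a fibrillar collagen of cartilage, was not higher with Zeb1. It was at 4.07 FPKM with EV, 2.72 with Zeb1, 4.06 with Snail and 0.893 with Ovol2. Only the Ovol2 ratio (-1.42) passed 2-fold. COL1A1 and COL27A1 hence had similar EV levels and differed from each other in the Zeb1 library.

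The basement membrane chains COL4A1 and COL4A2 are joined in the network of nearly every basement membrane. COL4A1 was at 31.7 FPKM with EV, 96.1 with Zeb1, 68.1 with Snail and 1.61 with Ovol2. COL4A2 was at 45.8, 99.2, 78.5 and 2.33 FPKM in the same libraries. The order was the same for both chains, with Zeb1 highest, then Snail, then EV, and Ovol2 lowest. Log2 ratios for COL4A1 were 1.57 with Zeb1, 1.08 with Snail and -3.64 with Ovol2, and for COL4A2 they were 1.10, 0.76 and -3.81. The Ovol2 levels were 19.6-fold and 19.7-fold below EV. With Snail, COL4A1 was under 2-fold after centring (0.94), upper quartile scaling (0.93) or the length correction (0.86). The length correction likewise left COL4A2 (0.97) and COL5A2 (0.98) just under 2-fold with Zeb1. The ratio of COL4A1 to COL4A2, which share the promoter region printed above, was 0.691 with EV, 0.970 with Zeb1, 0.868 with Snail and 0.692 with Ovol2.

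COL4A3 and COL4A4, chains of the kidney, lung and inner ear membranes, were much lower. COL4A3 was at 0.0870 FPKM with EV, 1.60 with Zeb1, 0.428 with Snail and 0.0231 with Ovol2. COL4A4 was at 0.424, 3.86, 1.83 and 0.0216 FPKM in those libraries. They kept the order of COL4A1 and COL4A2, Zeb1 above Snail above EV above Ovol2. For COL4A4 the plain ratio to EV was 9.10 with Zeb1 (counting interval 7.54 to 11.0) and 4.31 with Snail (3.53 to 5.26). The pseudocount held its Snail log2 ratio at 0.99, just under 2-fold. For COL4A3 the plain Zeb1 ratio was 18.4 (11.6 to 29.4), on about 21 EV fragments.

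COL4A5 and COL4A6, which form a network together in some epithelial and smooth muscle membranes, stayed near their EV levels with Zeb1 and Snail. COL4A5 was at 40.9 FPKM with EV, 47.1 with Zeb1, 48.0 with Snail and 5.99 with Ovol2. COL4A6 was at 17.0, 11.4, 19.7 and 1.05 FPKM in these libraries. Neither passed 2-fold with Zeb1 (0.20 and -0.54) or Snail (0.23 and 0.20), and both were lower with Ovol2 (-2.58 and -3.14). COL4A5 was the highest of all collagens in the Ovol2 library. The ratio of COL4A5 to COL4A6 was 2.40 with EV, 4.12 with Zeb1, 2.44 with Snail and 5.69 with Ovol2.

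**Figure D4:**
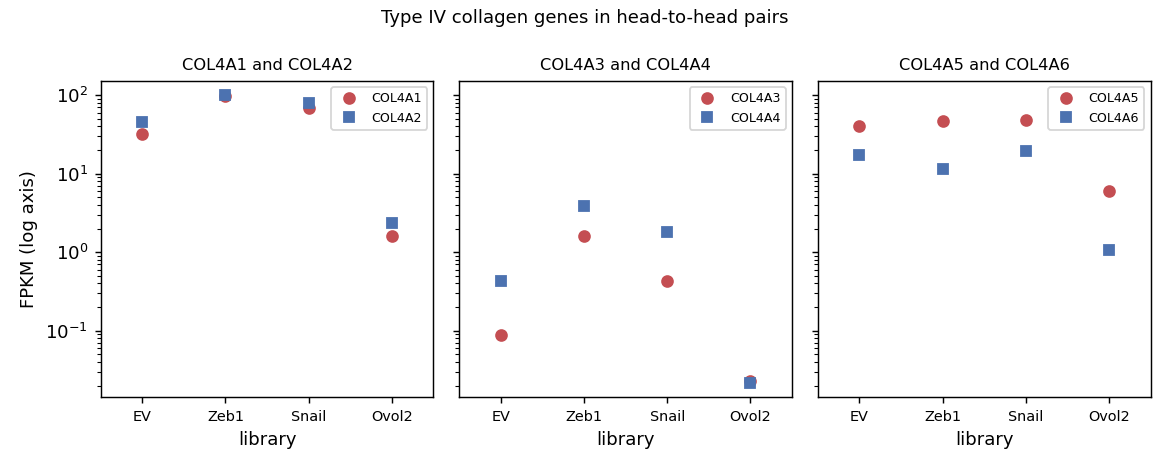
Level in FPKM (vertical log axis, shared) of the 6 type IV collagen genes in the 4 libraries (horizontal axis), with 1 panel for each head-to-head pair and 1 point per library. Zeb1 and Snail points lie above EV for the first 2 pairs, whereas COL4A5 and COL4A6 stay near EV there and are at 5.99 and 1.05 FPKM in the Ovol2 library.

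COL8A1, a short-chain collagen that forms hexagonal nets in vessel walls and the cornea, was at 6.46 FPKM with EV, 94.1 with Zeb1, 9.64 with Snail and 0.233 with Ovol2. It stood 14.6-fold above EV with Zeb1 (counting interval 13.7 to 15.5) and 27.7-fold below it with Ovol2 (19.6 to 41.0), with log2 ratios of 3.67 and -2.60. With Snail the ratio was 0.51. COL8A2, its possible partner chain, stayed at 0.102 to 0.201 FPKM, so the COL8A1 excess over it was 37.1-fold with EV, 665-fold with Zeb1, 48.0-fold with Snail and 2.28-fold with Ovol2.

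The fibril-associated collagens, which bind to the surface of fibrils, were represented by COL12A1 and COL16A1. COL12A1 was at 36.8 FPKM with EV, 91.0 with Zeb1, 52.9 with Snail and 1.26 with Ovol2. It had the lowest Ovol2 ratio of all members (-4.07), a plain level 29.3-fold below EV (26.3 to 32.6), and was higher with Zeb1 (1.28). COL16A1 was at 8.89, 2.06, 6.33 and 2.40 FPKM in the EV, Zeb1, Snail and Ovol2 libraries. It was highest in the EV library and was lower with Zeb1 (-1.69) as well as with Ovol2 (-1.54), while the Snail ratio was -0.43. Its promoter, printed above, holds the marked E-box 221 bases before the start. Among the other kept members with a window, COL4A3 and COL4A4 held their shared site, and LOX held a match in some but not all windows. These genes were higher with Zeb1. SERPINH1 (0.37) also held a match in some but not all windows. COL1A1, COL1A2, COL3A1, COL5A2, COL8A1 and LOXL2, which were higher with Zeb1 as well, had no window to search. Any part of the E-box in the levels was not tested.

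Of the lysyl oxidases, LOX, the founding member, was at 33.2 FPKM with EV, 101 with Zeb1, 103 with Snail and 1.51 with Ovol2. Zeb1 and Snail stood at like levels, with log2 ratios of 1.58 and 1.61, and their direct ratio was 0.978 (counting interval 0.958 to 0.999). With Ovol2 it was 22.0-fold below EV (-3.77). LOXL2, which also crosslinks type IV collagen, was at 9.70, 24.1, 16.1 and 0.632 FPKM in the EV, Zeb1, Snail and Ovol2 libraries, with ratios of 1.23, 0.67 and -2.71. LOXL1, better known for elastin, was at 4.88, 3.74, 4.16 and 1.23 FPKM, so it was highest in the EV library and past 2-fold only with Ovol2 (-1.40). LOXL3 and LOXL4 stayed at or below 0.333 FPKM.

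PLOD2, the lysyl hydroxylase that acts on the ends of fibrillar chains, was the highest member of all in the Zeb1 and Snail libraries. It was at 65.6 FPKM with EV, 229 with Zeb1, 125 with Snail and 7.50 with Ovol2, with log2 ratios of 1.79, 0.91 and -2.97. PLOD1, which acts on the helix, was at 23.4, 42.2, 28.9 and 9.07 FPKM. PLOD3, which also adds sugars to hydroxylysine, was at 14.1, 11.9, 17.8 and 4.32 FPKM. The 3 enzymes thus separated in the Zeb1 library, where PLOD2 was past 2-fold, PLOD1 stood at 0.83 and PLOD3 at -0.23. All 3 were lower with Ovol2, PLOD1 at -1.27 and PLOD3 at -1.51.

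P4HA2, a catalytic subunit of prolyl 4-hydroxylase, was at 23.2 FPKM with EV, 34.6 with Zeb1, 29.7 with Snail and 9.40 with Ovol2. SERPINH1, the collagen-specific chaperone, was at 70.4, 91.2, 89.2 and 28.7 FPKM. Neither passed 2-fold with Zeb1 (0.56 and 0.37) or Snail (0.34 for both), and both were lower with Ovol2 (-1.22 and -1.26). With PLOD1, these were the smallest Ovol2 differences among the 8 kept modification genes, and upper quartile scaling left all 3 under 2-fold (-0.87 for P4HA2, -0.90 for SERPINH1 and -0.93 for PLOD1).

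**Figure D5:**
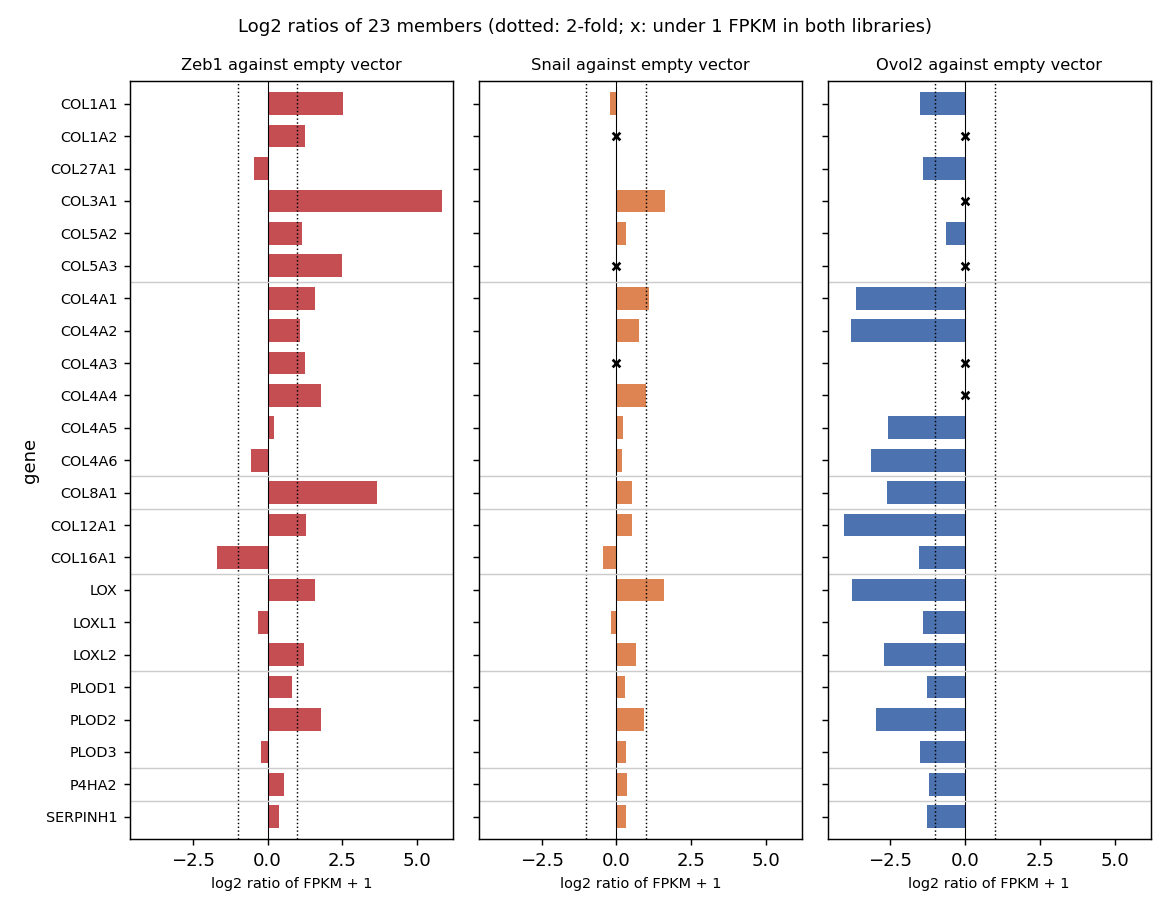
Log2 ratio of FPKM + 1 to the EV library (horizontal axis) for the 23 members that reached 1 FPKM, with 1 panel per factor, dotted lines at 2-fold and crosses for genes under 1 FPKM in both libraries. Bars point right with Zeb1 except for COL16A1, COL4A6, COL27A1, LOXL1 and PLOD3, and every kept member points left with Ovol2.

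Zeb1 and Snail were also compared directly, which does not use the EV library. COL3A1 (4.20), COL8A1 (3.16), COL1A1 (2.76), COL5A3 (2.21) and COL1A2 (1.23) were higher in the Zeb1 library by 2-fold or more, and COL16A1 (-1.26) was lower. These were 5 of 23 kept members higher and 1 lower, where 2.34% and 6.43% of all 11732 kept genes were called. COL1A2, COL4A3 and COL5A3 were kept through the Zeb1 library alone, so they could be called only higher. Among the 20 members at 1 FPKM or more in the Snail library, 3 were higher (COL1A1, COL3A1 and COL8A1) and 1 lower, against 1.65% and 6.70% of the 11258 genes at that level. On the log2 scale used, no type IV chain and none of the 8 kept modification genes passed 2-fold in this comparison, with ratios from -0.74 for COL4A6 to 0.87 for PLOD2 and COL4A3. For COL4A3 and COL4A4 this rested on the pseudocount, since their plain ratios were 3.74 (counting interval 3.02 to 4.64) and 2.11 (1.91 to 2.33), and a pseudocount of 0.1 gave 1.69 and 1.04. The count of 5 also depended on the scaling, since centring, which moved the median of all genes from -0.19 to 0.06, gave 10 higher, and 59.6% instead of 26.7% of all genes past 2-fold were then higher. That share was 55.3% with upper quartile scaling, 64.4% with equal totals and 56.0% after the length correction. With centring the added 5 were COL12A1 (1.02), COL4A3 (1.12), COL4A4 (1.03), COL5A2 (1.09) and PLOD2 (1.12).

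Genes that act on collagen and are not members were counted from lists that were fixed with earlier results of these data known. Beside each count stand the shares of all kept genes given above, 4.52% higher and 8.49% lower with Zeb1, 1.00% and 1.5% with Snail, and 6.82% and 25.1% with Ovol2. Of 13 kept genes of folding and modification, 0 were higher and 1 lower with Zeb1, 0 passed 2-fold with Snail, and 6 were lower with Ovol2. The prolyl 3-hydroxylase LEPREL1 was at 64.7 FPKM with EV, 14.8 with Zeb1, 65.7 with Snail and 14.5 with Ovol2 and was the 1 lower with Zeb1 (-2.05). P4HA1, the other common prolyl 4-hydroxylase subunit, was at 35.8, 66.9, 49.6 and 7.42 FPKM, so it was past 2-fold only with Ovol2 (-2.13). For secretion and propeptide processing, 3 of 11 kept genes were higher with Zeb1, the propeptide proteases ADAMTS2 (2.24) and BMP1 (1.09) and the coat protein SEC24D (1.17). ADAMTS2 was kept through the Zeb1 library alone. With Ovol2, 3 of 10 were lower, a share near the 25.1% of all kept genes. The protease TLL1 had the lowest ratio of the list (-2.38). With Ovol2, TLL1 and PCOLCE2 here and FKBP10 of the folding list were kept through the EV library alone, so they could be called only lower.

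The collagen receptors went both ways. With Zeb1, 2 of 7 kept receptors were higher and 2 lower, and ITGA11, 1 of the higher, was kept through the Zeb1 library alone. ITGA1, the integrin chain that prefers type IV collagen, was at 10.1 FPKM with EV, 35.2 with Zeb1, 48.9 with Snail and 0.381 with Ovol2. ITGA2, which prefers fibrillar collagen, was at 8.09, 2.76, 3.61 and 1.68 FPKM and so was lower than EV in all 3. The receptor kinase DDR1 was at 47.4, 19.8, 37.6 and 30.7 FPKM. Of 6 receptors kept with Ovol2, 4 were lower. Of 7 kept collagen-degrading proteases, 2 were higher with Zeb1, the gelatinase MMP2 (2.36) and cathepsin K (CTSK, 1.07). With Snail 1 was lower, the collagenase MMP13 (-1.08), and with Ovol2 4 were lower, led by FAP (-3.25). Of 10 kept partners that bind or crosslink fibrils, 8 were higher with Zeb1, 4 of 9 with Snail, and 7 of 8 were lower with Ovol2, against 4.52%, 1.00% and 25.1% of all kept genes. LUM and SPARC with Zeb1 and LUM with Snail were kept through the factor library alone, so they could be called only higher. With Ovol2, PXDN, TGM2 and FBLN1 were kept through the EV library alone, so they could be called only lower. The same held with Ovol2 for the receptor ITGA1 and the proteases MMP2 and CTSK. Fibronectin (FN1), on which collagen fibrils assemble, was at 92.7 FPKM with EV, 3982 with Zeb1, 576 with Snail and 6.60 with Ovol2. Decorin (DCN), a proteoglycan that coats fibrils, was at 11.1, 604, 131 and 6.98 FPKM in these libraries. The peroxidase PXDN, which crosslinks type IV collagen, was at 27.1, 85.9, 49.2 and 0.799 FPKM. COL4A1 and COL4A2 had the same order of libraries, but so did FN1, DCN and other members such as COL12A1 and PLOD2. COL4A5 and COL4A6 did not have it.

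Markers of cells that make collagen in tissue were examined beside these values. The 6 fibroblast and pericyte markers summed to 2.47 FPKM with EV, 30.7 with Zeb1, 4.01 with Snail and 0.566 with Ovol2. ACTA2 (20.0 FPKM) and DPT (9.98 FPKM, listed at 0 in the EV library) made up most of the Zeb1 sum, while PDGFRA, PDGFRB and THY1 stayed at or below 0.358 FPKM in all libraries. Their part in the higher collagen levels was not tested. The 5 endothelial markers summed to at most 1.55 FPKM, in the Ovol2 library. Among the 5 immune markers CD3E was listed at 0 in every library, PTPRC stayed at or below 0.0177 FPKM, and CD14 was at 17.0 FPKM in the Zeb1 library. Of the 4 chondrocyte markers, only MATN3 reached 1 FPKM. A listed 0 or a value near 0 can be a failed estimate in these tables. RPL13A, a ribosomal protein gene, was listed at 0 in the Zeb1 and Snail libraries, at 0.0254 FPKM with EV and at 0.207 with Ovol2.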

How the data were processed

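Total RNA from sorted MCF10A cells was made into TruSeq libraries, per the labels' protocols. Alignment and quantification tools (TopHat, Cufflinks and Cuffdiff, with hg19) are those listed per the submitters' processing notes, whereas tool versions, annotation and strand setting are not given there. The authors deposited 3 tables of 25360 rows, each with the EV library and 1 factor library. The deposited values were taken as FPKM from those notes and from their behaviour, as no header names the unit. The deposited signed fold, handled as a score, equals the plain ratio of both columns and served as an alternative. Other columns of the authors' comparison were not used here, since each group held 1 library. Rows that repeat a symbol (43) were summed. Log2 ratios of FPKM + 1 were computed in Python 3.11.15 with pandas 2.3.3, kept at 1 FPKM in either library, and called at 2-fold. The steps were tested on simulated counts of genes at 5 FPKM or more in the EV library, with counting error alone. That simulation held no length trend and no low genes, so it does not cover those. Members at 1 FPKM in any library were described, and those at 5 FPKM or more and past 2-fold named singly. The members, groups and gene lists were chosen with earlier results of these data known. Transcript lengths were the longest coding transcript of GENCODE 29, and length correction used a running median of 501 genes. In all 10 alternatives were tried, of other pseudocounts, filters, scalings, thresholds and a length correction. Promoter sequences are from RefSeq (GRCh38.p14).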

Additional observations from a re-analysis of the deposited data

How the results depend on the processing

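The counts of members past 2-fold were recomputed under 10 alternatives. With a 3-fold threshold 6 members were higher with Zeb1 (1.76% of all genes) and 9 lower with Ovol2 (7.52%), and with 1.5-fold 7 were higher with Snail (4.59%). The length correction left 11 lower with Ovol2 (7.50%). For Zeb1 against Snail, 8 members were higher with a pseudocount of 0.1, 10 with median centring, 8 with upper quartile scaling, 10 with equal totals without RMRP and RPPH1 and 10 at 1.5-fold, while 2 were lower at 1.5-fold and 0 at 3-fold. The shares of all genes higher were 4.44%, 4.38%, 3.85%, 4.66% and 6.38% in that order, and those lower 20.7% and 1.05%. The other recomputed counts were within 1.5 times of those reported. Of 627 recomputed log2 ratios of single members, 591 stayed on their side of the 2-fold threshold, 22 came to pass it, 14 no longer did and none past it changed direction. Among the 591, the 62 with the 5 FPKM filter and the 84 without a filter could not change, since filters leave ratios unaltered. The median over all genes moved from -0.09 to 0.18 for Zeb1 with equal totals, from 0.12 to -0.02 for Snail with centring, and from -0.51 to -0.23 for Ovol2 with upper quartile scaling. The median over members kept its sign under every alternative run, but without the filter, when members near 0 enter, it was 0.09 for Zeb1, 0.03 for Snail, -0.06 for Ovol2 and 0.03 for Zeb1 against Snail. The authors' fold compares with EV alone and was not run for Zeb1 against Snail. No replicate could be left out, so no spread is known. No paired analysis was possible because each group held 1 library. Depth limits the lowest members, since 1 to 11 estimated fragments stand behind COL1A2 and COL3A1 in the EV library.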
